A study of Homo sapiens with 5 samples.

Results

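The proteasome genes were taken as the protein-coding RefSeq genes of assembly GRCh38.p14 whose symbols begin with PSMA, PSMB, PSMC, PSMD, PSME, PSMF or PSMG. There were 50 of them among 19974 protein-coding genes on chromosomes 1 to 22 and X. The rule uses the gene symbol and no measured value, although it was set with earlier results of these data known.

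The 26S proteasome degrades proteins that carry ubiquitin chains. Its 20S core is a barrel of alpha and beta rings in which the proteolytic sites face inwards, and its 19S regulatory particle, made of an ATPase-containing base and a lid, recognises, unfolds and deubiquitinates the substrate. Immune and some specialised cells replace the catalytic beta subunits by interferon-inducible or tissue-specific forms. In erythroid cells proteasomes remove surplus globin chains and, during maturation, many proteins that the red cell no longer needs.

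The data came from PRO-seq, a run-on assay in which engaged RNA polymerases add biotin-labelled nucleotides to nascent RNA, which is then captured on streptavidin beads and sequenced. The cells were HUDEP-2, a human line of immortalised erythroid progenitors. Edited cells were 3 single-cell clones made with guide sg1617 against an enhancer of BCL11A. They carried a 1 bp insertion, 13 bp deleted or 15 bp deleted, with 1 library per clone. Wild-type HUDEP-2 cells gave 2 libraries. Because every edit was represented by a single clone, an edit and the clone that carries it cannot be told apart.

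The values were 28283 positions called as transcription start sites by the program TSScall, 14124 forward and 14159 reverse, of which 28159 lay on chromosomes 1 to 22 and X. They formed 2 lists without a column for any library, so edited and wild-type cells could not be compared, and no value below has a replicate error. The lists name 1 alignment as their source, and which library or libraries it holds is not known. The score was 0 for every call. A gene therefore either had a call or did not, and neither the depth nor the read support of any call is known. Of the defining markers, 10 of 10 erythroid marker genes, among them GATA1, ALAS2, HBB and TFRC, had a promoter call as defined next, against 0 of 5 lymphoid and 0 of 5 neuronal markers.

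A promoter call was a call on the gene's own strand within 500 bp of an annotated start. Of the 50 proteasome genes, 46 had one (92.0%, Wilson 95% interval 81.2 to 96.8%), against 9089 of all 19974 protein-coding genes (45.5%). The 4 genes without one were PSMA8, PSMB9, PSMB11 and PSME1. All 31 constitutive subunits of the 20S core and the 19S particle and all 7 assembly factors had a promoter call. The missing calls were thus found among the immunoproteasome and tissue-specific subunits, where 2 of 5 were called, and the activators and the inhibitor, where 4 of 5 were called. With so few genes the Wilson 95% intervals were 11.8 to 76.9% and 37.6 to 96.4%. Both hold the 45.5% of all protein-coding genes. When any call between 500 bp before and 500 bp after the gene sufficed, on either strand, 48 of the 50 genes had one, against 53.7% of all protein-coding genes.

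**Figure D1:**
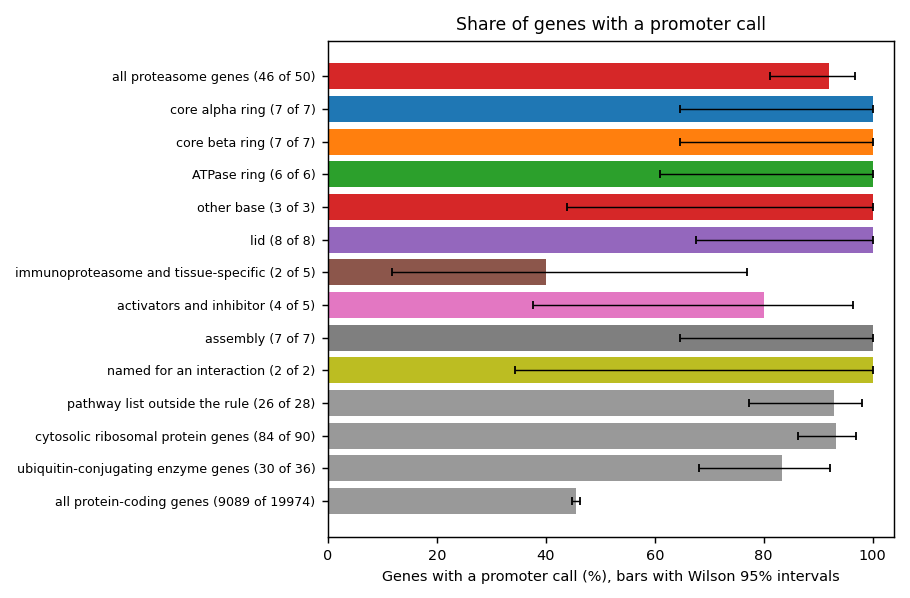
Share of genes with a promoter call, in percent, for all proteasome genes, for each role among them, and below for the pathway genes outside the family, 2 other gene families and all protein-coding genes. Bars start at 0 and whiskers are Wilson 95% intervals, which cover counting over genes only. The constitutive subunits and assembly factors reached 100%. Of the immunoproteasome and tissue-specific genes 2 of 5 were called, with an interval of 11.8 to 76.9%. That interval holds the 45.5% of all protein-coding genes.

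The alpha ring of the core, which gates the entrance to the proteolytic chamber, was called in 7 of 7 genes. PSMA1 (gene ID 5682, chr11:14504876-14643662, reverse strand) had a pair of called starts that lay far apart. One call, at 14643661, was 1 bp downstream of its outer start, 142 bp from the call of PDE3B, a phosphodiesterase gene that runs the other way. The other, at 14520339, was 47 bp downstream of an inner start located 123276 bp inside the gene. PSMA3, PSMA4 and PSMA5 were called 3, 5 and 11 bp downstream of a start. PSMA2 and PSMA7 were called 32 and 51 bp downstream. PSMA6 (gene ID 5687, chr14:35278558-35317493, forward strand) was called at 35292395, which was 13 bp downstream of a start lying 13824 bp inside the gene, and no call marked its outer start. The alpha ring thus had calls close to a start in each gene, with offsets between 1 and 51 bp.

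The beta ring carries the proteolytic sites, in PSMB5 (chymotrypsin-like), PSMB6 (caspase-like) and PSMB7 (trypsin-like). It was also called in 7 of 7 genes. PSMB5 (gene ID 5693, chr14:23025851-23035220, reverse strand) was called at 23034891, 9 bp downstream of a start that lies 320 bp inside the gene. PSMB6 was called 40 bp and PSMB7 4 bp downstream of the outer start. Of the structural subunits, PSMB1 was called at 7 bp, PSMB2 at 12 bp, PSMB3 at 44 bp and PSMB4 at -8 bp, the minus sign standing for upstream. Every beta ring gene had a single call on its own strand, and 3 of the 7, PSMB1, PSMB4 and PSMB5, had no call on the other strand within 1000 bp upstream.

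The ATPase ring, PSMC1 to PSMC6, drives unfolding of the substrate, and 6 of 6 genes were called. PSMC1, PSMC2, PSMC4 and PSMC5 were each called within 1 bp of an annotated start, at offsets of 1, 0, -1 and 0 bp. PSMC6 was called 32 bp and PSMC3 192 bp downstream. PSMC5 (gene ID 5705, chr17:63827431-63832019, forward strand) had calls at both of its annotated starts, at 63827443, 12 bp downstream of the outer one, and at 63827721, exactly at the one 290 bp inside. The remaining subunits of the base were PSMD1 and PSMD2, the large scaffold proteins, each called at 7 bp, and PSMD4, a ubiquitin receptor, called at 0 bp.

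The lid was called in 8 of 8 genes. PSMD14 (gene ID 10213, chr2:161308425-161411717, forward strand), the deubiquitinase of the lid, was called 50 bp downstream of its start. PSMD12 and PSMD13 were called at 0 bp, PSMD3 and PSMD6 at -1 bp, PSMD7 at 2 bp and PSMD11 at 11 bp. PSMD8 was the exception in distance, with its call at 38374787 on chromosome 19, 216 bp downstream of the annotated start. PSMD13 had a further own-strand call 430 bp upstream of its start. Together with PSMC3, PSMD8 made up the 2 called proteasome genes whose call lay more than 100 bp from a start.

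The starts of several regulatory particle genes held the ETS motif CCGGAAG, to which ETS-family transcription factors bind. Promoter windows, which RefSeq gives as 250 bases before to 50 after a start (build GRCh38.p14), were available for 44 proteasome genes, with 16 in the regulatory particle and 10 in the core. PSMA7, PSMB1, PSMB6, PSMB7, PSMD4 and PSMG3 were not among them. The motif, searched on both strands, was found in 9 of the 16 regulatory particle windows (56.2%) and in 1 of the 10 core windows, that of PSMA6, against 14.5% of the windows of all 15812 protein-coding genes and 24.2% of those of called genes. Within 40 bases of the start it was found in 8 of 16 regulatory particle windows, against 7.4% of all and 13.0% of those of called genes. It was as near in 1 of 10 core windows, that of PSMA6, and in 13 of all 44 proteasome windows (29.5%). The remaining ones were those of PSMF1, PSMC3IP, PSME3IP1 and the uncalled PSMA8. The count near the start was added after the data were seen, and the difference between the particles was not tested. The stretches of the 8 regulatory particle genes are shown from 60 bases before to 20 after the annotated start. The start is base 61 of each, and capitals mark the motif on either strand. The stretches show how near the motif lies to the called base.
PSMC1: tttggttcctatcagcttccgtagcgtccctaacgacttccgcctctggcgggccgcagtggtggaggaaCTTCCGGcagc
PSMC2: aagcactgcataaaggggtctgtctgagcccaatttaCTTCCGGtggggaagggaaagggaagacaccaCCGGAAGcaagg
PSMD6: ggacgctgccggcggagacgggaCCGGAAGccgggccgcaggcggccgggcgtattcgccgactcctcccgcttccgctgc
PSMD7: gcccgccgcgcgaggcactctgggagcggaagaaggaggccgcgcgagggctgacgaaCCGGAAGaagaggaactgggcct
PSMD8: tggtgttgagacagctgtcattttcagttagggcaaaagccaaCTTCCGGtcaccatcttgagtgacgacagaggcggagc
PSMD12: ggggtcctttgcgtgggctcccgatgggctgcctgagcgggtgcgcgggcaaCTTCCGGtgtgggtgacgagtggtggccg
PSMD13: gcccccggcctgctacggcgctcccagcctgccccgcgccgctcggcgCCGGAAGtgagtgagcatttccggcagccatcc
PSMD14: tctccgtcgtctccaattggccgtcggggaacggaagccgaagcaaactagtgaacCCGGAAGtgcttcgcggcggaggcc
The windows lie at chr14:90256493-90256573 for PSMC1, chr7:103347583-103347663 for PSMC2, chr16:74296754-74296834 for PSMD7, chr19:38374511-38374591 for PSMD8, chr11:236916-236996 for PSMD13 and chr2:161308365-161308445 for PSMD14, all on the forward strand. Those of PSMD6, chr3:64023474-64023554, and PSMD12, chr17:67366557-67366637, are on the reverse strand. The call fell on base 62 in PSMC1, base 61 in PSMC2, PSMD12 and PSMD13, base 60 in PSMD6 and base 63 in PSMD7. In PSMD7 the call lay inside the motif, which began at base 59 of the stretch, and in PSMD12 and PSMD13 the motif lay shortly upstream of the called base. The calls of PSMD14 and PSMD8 lay past the end of the stretch.

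Among the genes of this family that interferon is known to induce, some had a promoter call and some did not. PSMB8, PSMB9 and PSMB10 encode the catalytic subunits that replace PSMB5, PSMB6 and PSMB7 in the immunoproteasome, and PSME1 and PSME2 encode the PA28 activator that caps the core. PSMB8 (gene ID 5696, chr6:32840717-32844679, reverse strand) was called at 32844679, exactly at its outer start. PSMB10 (gene ID 5699, chr16:67934506-67936850, reverse strand) was called at 67936860, 10 bp upstream of its start. PSME2 (gene ID 5721, chr14:24143365-24146610, reverse strand) was called at 24146621, 11 bp upstream. PSMB9 and PSME1 had no call on their own strand.

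The promoters of these genes are shown because called and uncalled members can be compared directly in them. Each is the RefSeq window of 300 bases in GRCh38.p14, with the annotated start at base 251, and capitals mark the letters AANNGAAA, the core of the site bound by interferon regulatory factors (IRF), on either strand.
PSMB8: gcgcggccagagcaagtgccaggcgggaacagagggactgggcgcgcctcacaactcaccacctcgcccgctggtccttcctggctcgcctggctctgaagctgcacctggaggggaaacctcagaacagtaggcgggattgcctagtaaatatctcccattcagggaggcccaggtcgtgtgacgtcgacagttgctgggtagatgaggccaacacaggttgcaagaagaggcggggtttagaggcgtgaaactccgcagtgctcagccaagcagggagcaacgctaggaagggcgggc
PSMB9: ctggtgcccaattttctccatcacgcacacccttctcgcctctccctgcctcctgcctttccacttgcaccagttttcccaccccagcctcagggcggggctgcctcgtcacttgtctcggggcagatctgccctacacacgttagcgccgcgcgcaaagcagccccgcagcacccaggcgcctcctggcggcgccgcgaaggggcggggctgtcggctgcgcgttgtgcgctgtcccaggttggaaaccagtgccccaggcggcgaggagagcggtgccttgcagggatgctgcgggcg
PSMB10: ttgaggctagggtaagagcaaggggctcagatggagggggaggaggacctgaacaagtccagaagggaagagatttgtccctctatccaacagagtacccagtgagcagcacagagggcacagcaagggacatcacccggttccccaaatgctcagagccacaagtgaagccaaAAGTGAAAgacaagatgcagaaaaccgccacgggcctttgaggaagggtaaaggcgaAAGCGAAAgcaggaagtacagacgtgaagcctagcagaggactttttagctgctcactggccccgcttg
PSME1: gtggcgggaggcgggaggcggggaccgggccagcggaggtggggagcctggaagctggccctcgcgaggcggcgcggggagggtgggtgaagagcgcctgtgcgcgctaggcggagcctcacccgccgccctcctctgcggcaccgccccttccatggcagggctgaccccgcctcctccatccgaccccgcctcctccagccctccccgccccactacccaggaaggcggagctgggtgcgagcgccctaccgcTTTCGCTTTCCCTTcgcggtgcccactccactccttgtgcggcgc
PSME2: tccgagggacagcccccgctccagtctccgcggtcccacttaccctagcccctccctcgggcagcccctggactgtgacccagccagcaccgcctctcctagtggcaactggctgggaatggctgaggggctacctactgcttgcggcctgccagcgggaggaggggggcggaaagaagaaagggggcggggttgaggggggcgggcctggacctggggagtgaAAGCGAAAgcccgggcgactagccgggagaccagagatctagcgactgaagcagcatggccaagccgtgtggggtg
The windows lie at chr6:32844630-32844929 for PSMB8, chr16:67936801-67937100 for PSMB10 and chr14:24146561-24146860 for PSME2, on the reverse strand, and at chr6:32853942-32854241 for PSMB9 and chr14:24135944-24136243 for PSME1, on the forward strand. The called base is number 251 in PSMB8, 241 in PSMB10 and 240 in PSME2. The form AAGCGAAA occurred in 4 of the 44 proteasome windows, those of PSMB10, PSME1, PSME2 and PSMG4 (9.09%), against 0.576% of all protein-coding windows. Among called genes it was in 3 of 40 proteasome windows (7.5%), against 0.726% of all called. It was picked out after these sequences had been seen, so the count is a description. It began 9 bases before the called base in PSMB10, 15 bases before it in PSME2 and 34 bases before it in PSMG4, an assembly factor. In PSME1 it lay on the other strand from 5 bases after the annotated start. The letters AANNGAAA were not in the windows of PSMB8 and PSMB9. They were found in 12 of the 44 proteasome windows (27.3%), against 18.5% of all protein-coding windows. Among called genes they were in 11 of 40 proteasome windows (27.5%), against 14.9% of all called. Of the windows of constitutive 20S and 19S subunits, 6 of 26 held them (23.1%). They were in 32.4% of the windows of cytosolic ribosomal protein genes and 7.14% of those of ubiquitin-conjugating enzyme genes. The letters AANNGAAA were likewise searched after these sequences had been seen.

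PSMB9 (gene ID 5698, chr6:32854192-32859851, forward strand) shares its upstream region with TAP1, which encodes a peptide transporter of antigen presentation and runs the other way, the gap between the genes being 487 bp. From 500 bp inside TAP1 to 500 bp inside PSMB9 there were 2 reverse calls and 0 forward calls. The reverse call at 32853700 was 4 bp downstream of the TAP1 start, and the one at 32854044 lay at -340 bp from the TAP1 start and at -148 bp from that of PSMB9, at base 103 of the window above. The region was thus called in the direction of TAP1 only, and the nearest forward call was at -15847 bp from the PSMB9 start.

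PSME1 (gene ID 5720, chr14:24136194-24138962, forward strand) likewise had a call on the other strand only. A reverse call at 24136028, at -166 bp from its start and at base 85 of the window above, was the only call found at PSME1 on either strand. Unlike the reverse calls at PSMB9, it lay within 500 bp of no annotated reverse-strand start. The nearest forward call lay 5668 bp downstream of the start, beyond the neighbouring gene EMC9, an endoplasmic reticulum membrane complex subunit gene. PSME1 and PSME2 encode partners of 1 complex, and only PSME2 had a promoter call. The tissue-specific subunits PSMA8, of the testis, and PSMB11, of thymic epithelium, had 0 calls on either strand. Their nearest own-strand calls lay at -42970 bp from the start of PSMA8 and at 15518 bp from that of PSMB11.

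**Figure D2:**
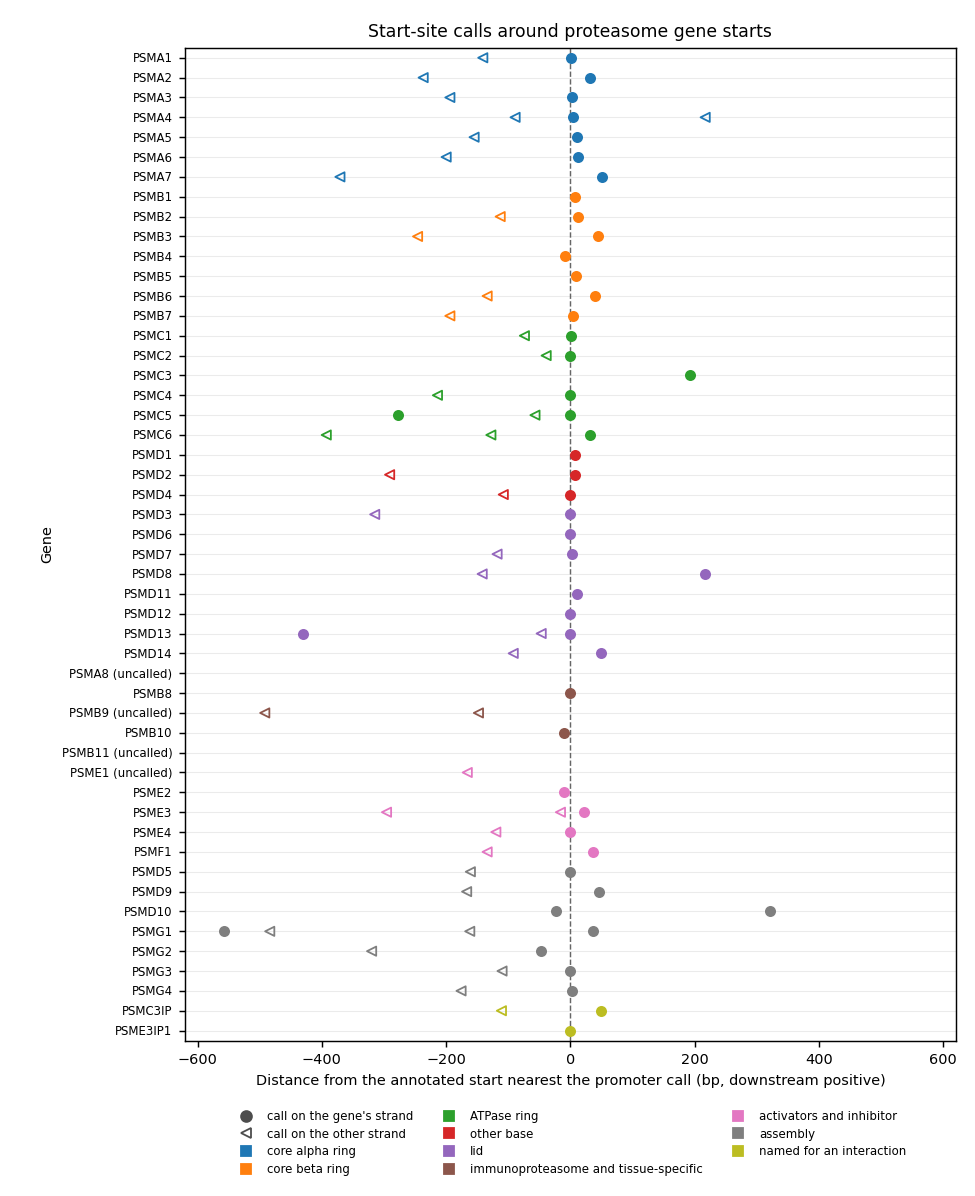
Calls around the annotated start for each of the 50 proteasome genes, in bp with downstream positive and the start at the dashed line; filled circles are calls on the gene's strand, open triangles calls on the other strand, and colours give the role. Most genes show 1 circle close to the line and 1 triangle to its left; PSMA8 and PSMB11 are empty, and PSMB9 and PSME1 have triangles only.

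The other activators and the inhibitor were all called. PSME3, the nuclear PA28 gamma activator, was called 22 bp downstream of its start and PSME4, the PA200 activator, at -1 bp. PSMF1 (gene ID 9491, chr20:1113263-1172246, forward strand), which encodes the proteasome inhibitor PI31, was called at 1118638, 36 bp downstream of a start lying 5339 bp inside the gene, with no call at the outer start. PSMF1 also held a reverse call 6767 bp downstream of the called start.

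Assembly of the core is guided by the chaperones PSMG1 to PSMG4 and that of the base by PSMD5, PSMD9 and PSMD10. PSMG1 was called at 36 bp, PSMG2 at -47 bp, PSMG3 at -1 bp and PSMG4 at 3 bp. PSMG2 (gene ID 56984, chr18:12658738-12725740, forward strand) was called at 12702995 next to a start 44304 bp inside the gene, and PSMG4 (gene ID 389362, chr6:3254404-3268049, forward strand) at 3258950 next to a start 4543 bp inside. PSMD5, PSMD9 and PSMD10 were called at -1, 46 and -23 bp. PSMG1 had a further own-strand call 495 bp upstream of its outer start, the promoter call closest to the limit of 500 bp. Beyond that limit, the nearest own-strand call of an uncalled proteasome gene was the one at 5668 bp from PSME1. The symbol rule also took in PSMC3IP, a cofactor of meiotic recombination named for its binding of PSMC3, and PSME3IP1, which encodes a protein that binds PSME3. They were called at 49 and 0 bp.

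The start nearest to a call lay over 500 bp inside the outer end of the gene in 5 of the 46 called genes, PSMA6, PSMD6, PSMF1, PSMG2 and PSMG4. Their share, 10.9%, compares with 11.3% of all called protein-coding genes. PSMA1 is not among the 5, because its closest call was at the outer start, but it also had the call at its inner start. A further search took the outer ends alone and set the annotated strand aside. It counted a forward call at the left or a reverse call at the right end of each proteasome gene. These 5 genes were then lost and 41 of 50 were called. The search was not made for all protein-coding genes. PSMD6 was lost by a narrow margin, its called start lying 513 bp inside the gene. Annotated starts without a call existed too: the inner start of PSMD2, 1340 bp inside the gene, had its nearest own-strand call at -1333 bp, and that of PSMB8 at -632 bp.

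Promoter calls lay close to the annotated starts. The median offset over the 46 called proteasome genes was 3.5 bp downstream, with quartiles of 0 and 29.5 bp and a range of -47 to 216 bp, and 26 (56.5%) lay within 10 bp. Over all called protein-coding genes the median was 1 bp, with quartiles of -1 and 19 bp, and 55.3% lay within 10 bp. An offset of -1 bp was found in 6 of the 46 proteasome genes (13.0%), against 19.5% of all called genes. Core genes had a median of 10 bp and regulatory particle genes 1 bp, a difference that was not tested.

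**Figure D3:**
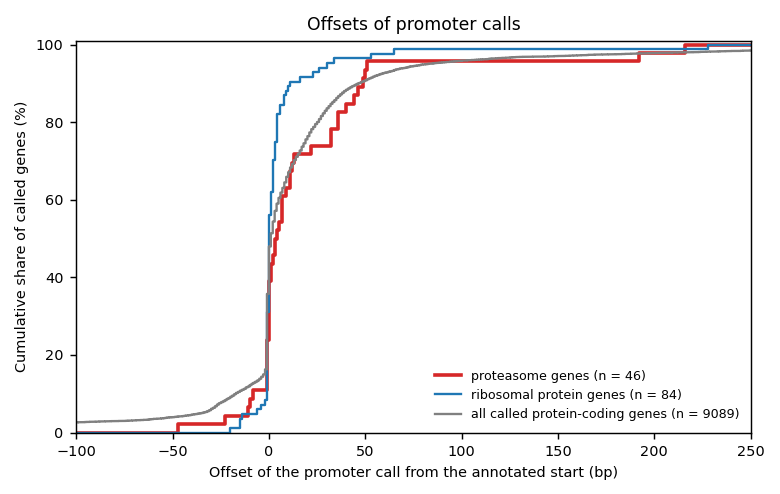
Cumulative share of called genes, in percent, against the offset of the promoter call from the nearest annotated start in bp, for proteasome genes, ribosomal protein genes and all called protein-coding genes. All curves climb steeply at 0 bp; the proteasome curve has a step near 192 and 216 bp from PSMC3 and PSMD8, and the ribosomal curve is the steepest of the 3.

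The bases at the calls were read from the windows that contained them. Initiation by RNA polymerase II often takes place at a pyrimidine followed by a purine. Such a step ended on the called base in 15 of 37 proteasome genes (40.5%), against 32.2% of all called protein-coding genes with the call in the window. It ended on the next base in 12 of 36 (33.3%), against 44.1%. Over all genes the share at the next base was similar on the strands, with 43.3% for forward and 44.9% for reverse calls, and steps ending 1 base before the call made up 12.2 and 11.8%. Over all genes the step thus ended more often on the next base than on the called base, and the reason was not tested. Positions are given here as called, and whether they are exact to the base is not known. In the proteasome genes the commonest pair of bases was TA, with the called base the A, in 9 of 37 (24.3%, against 13.6% of all called genes), among them PSMA2, PSMA3, PSMA4 and PSMA5 of the alpha ring, PSMC5, PSMC6 and PSMD11.

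Most called proteasome genes formed a divergent pair with a call of the other strand. Such a call lay within 1000 bp upstream in 34 of the 46 genes (73.9%), against 66.5% of all called protein-coding genes. The median distance was 168 bp (quartiles 119 and 213 bp), against 177 bp (quartiles 118 and 279 bp). The closest pairs were those of PSME3 at 38 bp, PSMC2 at 39 bp and PSMD13 at 47 bp. The 12 genes without a divergent call were PSMB1, PSMB4, PSMB5, PSMB8, PSMB10, PSMC3, PSMD1, PSMD6, PSMD10, PSMD11, PSMD12 and PSME3IP1. PSMB8 and PSMB10 thus lacked the upstream antisense call that the uncalled PSMB9 and PSME1 had.

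In 9 of the 34 pairs the other call lay within 500 bp of the start of a protein-coding gene, or 26.5%, against 28.4% of the pairs of all called genes. These partners were PDE3B of PSMA1, MRPL32 of PSMA2, SS18L1 of PSMA7, FTSJ3 of PSMC5, SIRT3 of PSMD13, HPD of PSMD9, RNF31 of PSME2, ACYP2 of PSME4 and CEP76 of PSMG2. MRPL32 encodes a mitochondrial ribosomal protein and SIRT3 a mitochondrial deacetylase. HPD, an enzyme of tyrosine breakdown known from liver, was called 12 bp upstream of its start, 213 bp from the call of PSMD9. The most distant partner call, 879 bp from the call of PSME2, was that of RNF31, a subunit of a ubiquitin ligase complex. It lay at a start 623 bp inside RNF31, and a reverse call nearer to it lay at 226 bp. PSME2 and RNF31 were thus not each other's nearest divergent calls. A further 4 calls lay at the starts of the non-coding genes PSMG3-AS1, LOC124904720 and LOC105372493 and the transcribed pseudogene CUTALP. The other 21 were at no annotated start.

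Few proteasome genes had several calls. Counting own-strand calls from 500 bp upstream of the gene onwards, 41 of the 46 called proteasome genes had 1 call and 5 had 2, namely PSMA1, PSMC5, PSMD10, PSMD13 and PSMG1. The share with 2 or more was 10.9%, against 27.7% of all called protein-coding genes and 58.3% of called ribosomal protein genes. No proteasome gene had more than 2. With calls within 500 bp merged, 2 genes had 2 or more, a count not made for all genes. Beside the antisense call next to the inner start of PSMA1, 3 calls on the other strand lay more than 500 bp downstream of a called start: 615 bp into PSMC4, 6767 bp into PSMF1 and 2714 bp into PSMD10.

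Motifs of factors linked to proteasome genes were counted in the same windows. NFE2L1, also called NRF1 or TCF11, raises proteasome gene transcription when proteasomes are inhibited and binds antioxidant response elements with small MAF proteins. The letters TGACNNNGC of that element were found in 13 of 44 proteasome windows (29.5%), against 14.5% of all protein-coding windows. Among called genes they were in 11 of 40 proteasome windows (27.5%), against 15.9% of all called. They were in 1 of 10 core and 5 of 16 regulatory particle windows. Within 150 bases before the start they were found in 8 of 44 (18.2%), against 7.92% of all. Among called genes this share was 15.0%, against 8.66% of all called. For the constitutive 20S and 19S subunits it was 3 of 26 (11.5%), and over the whole window 6 of 26 (23.1%). Over the whole window the letters occurred in PSMB3, PSMC4, PSMC5, PSMD1, PSMD3, PSMD12, PSMB9, PSME1, PSME2, PSME4, PSMD5, PSMD9 and PSMG1. In the lid gene PSMD3 the form TGACTCGGC began 37 bases before the start and in the ATPase gene PSMC5 the form TGACACAGC, on the other strand, 57 bases before it. The longer form TGACTCAGC was in 0 of the 44 windows and in 0.449% of all. Sites outside the windows were not searched.

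The CCAAT box of NF-Y was found in 19 of 44 proteasome windows (43.2%), against 36.4% of all protein-coding windows and 39.1% of those of called genes. GGGCGG, bound by SP factors, was in 31 (70.5%), above the 59.9% of all windows and below the 75.6% of called genes. The ETS motif, counted over all 44 windows, was in 17 (38.6%), against 14.5% of all and 24.2% of called genes. It was in 31.0% of the windows of cytosolic ribosomal protein genes and 14.3% of those of ubiquitin-conjugating enzyme genes. TATAAA, bound by TBP, was in 4 (9.09%), against 9.42% of all and 4.52% of called genes, and CGCATGCG, bound by nuclear respiratory factor 1, in 1, that of PSMA4, against 3.04% of all and 5.19% of called genes. These shares were not tested, and several genes hold matches to more than one motif. The median GC content of the proteasome windows was 62.2%, against 66.0% in called protein-coding genes and 63.0% in all.

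**Figure D4:**
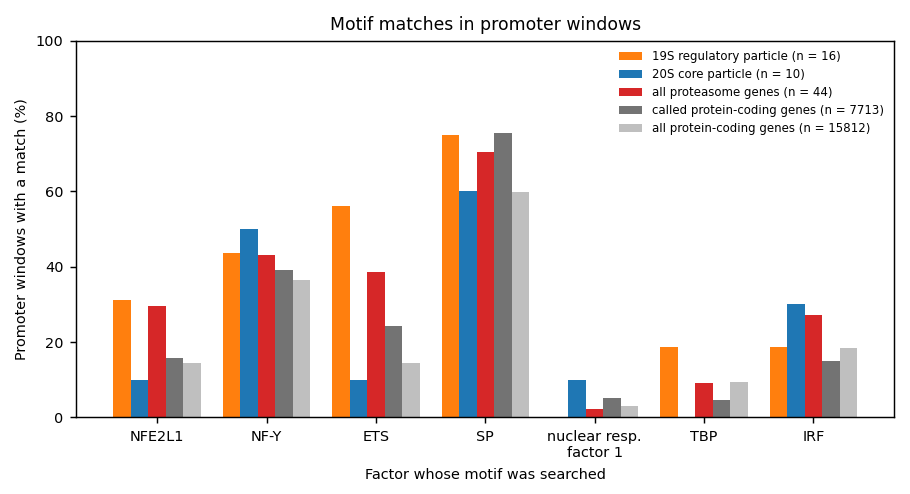
Percentage of promoter windows, 300 bases each, with at least 1 match to each motif on either strand, for the 19S regulatory particle, the 20S core, all proteasome genes, called protein-coding genes and all protein-coding genes. The ETS bars stand at 56.2% for the regulatory particle and 10% for the core; with 16 and 10 windows, 1 gene moves these bars by several percent.

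Other genes of the pathway were called nearly throughout. Of 28 genes outside the symbol rule, 26 had a promoter call (92.9%), against 45.5% of all protein-coding genes. ADRM1 and SEM1, subunits of the 19S particle, were called at -21 and 0 bp, and POMP, the maturation factor of the core, at -7 bp. NFE2L1 was called at 0 bp and DDI2, the protease that activates it, at -26 bp. NGLY1, which removes the glycans of NFE2L1, had 2 promoter calls. The one reported here lay 28 bp downstream of a start 6596 bp inside the gene. Among the called genes of this list, 10 of 26 had 2 or more own-strand calls (38.5%), against 27.7% of all called protein-coding genes.

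Beside 2 other families, the proteasome genes had a similar share of called genes and different numbers of calls. Of 90 cytosolic ribosomal protein genes 84 were called (93.3%) and of 36 ubiquitin-conjugating enzyme genes 30 (83.3%). A divergent call accompanied 76.2% of the called ribosomal protein genes and 66.7% of the called ubiquitin-conjugating enzyme genes. Within 10 bp of a start lay 84.5% of the ribosomal and 63.3% of the ubiquitin-conjugating calls. These differences were not tested.

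Chromosomes 14 and 17 each carried 8 of the 50 proteasome genes. They hold 3.03% and 5.85% of all protein-coding genes. On chromosome 14 these were PSMA3, PSMA6, PSMB5, PSMB11, PSMC1, PSMC6, PSME1 and PSME2, of which PSMB11 and PSME1 were uncalled. On chromosome 17 all 8 were called.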

How the data were processed

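PRO-seq was made in 3 edited HUDEP-2 clones and 2 wild-type HUDEP-2 samples, 5 libraries in all, but the lists used here have no column per library. The authors deposited 1 list of calls per strand, with a score of 0 for every call. Per the file headers, the lists were made with TSScall on 1 sorted, de-duplicated alignment. Its name includes HUDEP-2 in short form but no guide, and matches no sample title. Whether the calls come from wild-type cells only is therefore not known. As other values the deposited lists give only positions 1 base wide. Per the submitters' processing notes, hg38, BWA 0.7.16a, Picard, SAMtools 1.17 and deepTools 3.5.4 were used; version and read minimum of TSScall: not given in the sources used here.

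Gene ends came from the RefSeq gene table and strands and inner starts from the RefSeq promoter table, both GRCh38.p14. A gene's annotated starts were those of the promoter table and its outer end on that strand; for genes without a window, a forward call at the left or a reverse call at the right end counted. For each gene the window nearest a promoter call was used, otherwise the outermost. The members and gene lists were chosen with earlier results of these data known, and all members and pathway genes could be named; the uncalled pathway genes are not reported here by name. Samples were grouped by their titles, and no test was made, since no value belongs to a library. The scripts were tested on simulated calls. Scripts ran in Python 3.11.15 with matplotlib 3.10.9 for figures, pandas 2.3.3 and numpy 2.4.6 for tables and scipy 1.17.1. Alternatives changed the window, the strand rule, the divergent distance, the merging and the motif.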

Additional observations from a re-analysis of the deposited data

Results flagged for a closer look

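Genes named after proteasome genes but not coding for protein were outside the comparisons. At them, 4 calls were found that lay at no member, and they were noted because 4 exceeds the limit of 3 that a count of 0 allows. That limit is not the number to be looked for at such genes, since 15.7% of all long non-coding RNA genes have a call. The 4 calls were 3 at PSMA3-AS1 and 1 at PSMD3-AS1, both long non-coding RNA genes. PSMA3-AS1 was called on its own strand 22 bp downstream of its start, at 58298115 on chromosome 14. Of 8 such long non-coding RNA genes, 4 had a call in or within 500 bp of the gene, against 2851 of all 18177. The calls at 2 of these 4, PSMB8-AS1 and PSMG3-AS1, also lie at PSMB8 or PSMG3, so 2 of the 8 had calls apart from the proteasome genes. A promoter call was found at 2 of the 8, PSMA3-AS1 and PSMG3-AS1. Of the pseudogenes, 0 of 52 named after proteasome genes had a call, against 1.64% of 15212 pseudogenes.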

How the results depend on the processing

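Of 28 results under alternatives, 25 stayed and 3 moved. Staying meant within 1.5 times the value reported or, for the median offset, within the standard deviation of the offsets. Counts close to the number of members could not rise 1.5 times, and a wider window could not lower them. The 25 is therefore no measure of robustness. The number of proteasome genes with 2 or more own-strand calls was 2 in place of 5 when calls within 500 bp were merged. The number of windows with the NFE2L1 motif was 0 in place of 13 with the longer motif and 8 (18.2%, against 7.92% of all windows) with matches within 150 bases before the start only. The count of called genes was 44 with a window of 100 bp, which lost PSMC3 and PSMD8, and 46 with 1000 bp. It was 41 with the outer ends alone, whatever the annotated strand, and 48 with any call in or near the gene. The divergent count was 33 at 500 bp and 35 at 2000 bp. For any call in or near the gene, the share of all protein-coding genes was 53.7%. The other settings of window, strand rule, divergent distance and merging were not applied to all genes. Whether the contrast with all genes holds under them is not known. The ETS count within 40 bases of the start was added after the data were seen. No paired analysis was possible because the calls carry no library. The lists give no read counts, so an uncalled gene and one transcribed below the limit of the caller cannot be told apart.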
